A study of Rattus norvegicus with 20 samples.

Results

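Radiation-induced mammary adenocarcinomas of lean control rats were compared with normal mammary tissue of lean control rats, 3 cancers against 3 normal tissues out of 20 arrays in the series. The 6 samples were taken by their labelled tissue and obesity group, and no measured value chose them. Both groups came from female Sprague-Dawley (Jcl:SD) rats on a standard diet with 10 kcal% fat, in a study whose animals were whole-body irradiated at 7 weeks of age with 4 Gy of caesium gamma rays at 0.5 Gy/min and watched for palpable tumours over 30 weeks (30 rats per diet group). The adenocarcinomas had been picked for even histology, with no necrosis and no heavy infiltrate, and the normal tissues came from rats of matched age. The other arrays held obesity-prone (OP, 6 cancers and 3 normal tissues) and obesity-resistant (OR, 3 cancers and 2 normal tissues) rats on a diet with 45 kcal% fat, irradiated alike. Separate animals are not stated in the labels for each sample, and p-values then measure only the sample-to-sample spread, which may be technical.

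The mammary gland is a tree of ducts and milk-forming alveoli embedded in a pad of white fat, with fibroblasts, vessels, nerves, immune cells and lymph nodes around it. The ducts have an inner luminal layer, which carries the hormone receptors, and an outer basal or myoepithelial layer, which contracts. A carcinoma is mostly epithelium, so a comparison of whole tissue sets an epithelial mass against a fat pad that holds some epithelium. In such bulk samples, fewer cells of a type and less RNA per cell cannot be told apart.

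Each sample was read on a 1-colour Agilent whole-genome rat array, whose probes report brightness. Values below are log2 intensities after background correction and quantile normalization, a difference is cancer minus normal on that log2 scale with its standard error (SE), and adjusted p-values are limma's with Benjamini-Hochberg adjustment over all genes tested. Per-sample values are given in the order of the labels' replicate numbers, so that cancer 2 and normal 2 stand second in their groups. The share of probes well above background was 68.0% ± 4.09 on the cancer arrays, against 92.4% ± 4.19 on the normal arrays (SD, n = 3 each), and the lowest normal array (87.7%) lay above the highest cancer array (70.8%). The part of this gap in the differences below was not tested. Cancers 2 and 3 shared a slide and were read on scan day 1, whereas cancer 1 and the 3 normal tissues were read on scan day 2. Cancer 1 and normal 1 lay on the same slide, the only slide that held both tissues of lean controls.

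The tissues differed in more than 1 gene in 5. Of 36658 genes tested, each unnamed probe being taken as 1 gene, 8380 (22.9%) passed an adjusted p of 0.05, with 4659 (12.7%) higher and 3721 (10.2%) lower in the cancers. At least a 2-fold difference was seen for 2139 of the higher and 1952 of the lower ones. An unadjusted p under 0.05 was found for 15272 genes (41.7%). The groups did not overlap in 19037 genes (51.9%). Among the 8336 genes with a symbol, 2017 (24.2%) passed, 1069 (12.8%) higher and 948 (11.4%) lower, and 4203 (50.4%) did not overlap, so counts of list members below are read against these shares. The median difference over all genes was -0.04. The split between directions depended on how arrays were scaled. Higher genes made up 55.6% of calls here, 11.3% when processed signals were set to the 75th percentile of each array, 27.6% when background-corrected signals were, and 32.2% in the authors' deposited value table, with all-gene medians of -1.39, -0.65 and -0.23 under these scalings. Of 36658 genes 19666 passed as lower with processed and 3258 with background-corrected signals so scaled, and 5072 of 19511 in the authors' table. Counts of list members under these scalings are read against these numbers. At the median SE of 0.176, a 95% interval reached 0.487 to either side.

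The number of calls also rested on single samples. It fell to 2228, 2162 and 2925 without cancer 1, 2 or 3, and came to 10310, 5377 and 11356 without normal tissue 1, 2 or 3. With scan day as a block 93 genes passed, of which 81 were among the 8380, all 81 in the same direction, and 8567 had an unadjusted p under 0.05. On scan day 2 alone, with 1 cancer against the 3 normal tissues, limma called 0 genes, with 5738 at an unadjusted p under 0.05. In lean controls scan day is confounded with tissue except through cancer 1. With scan day as a block over all 20 arrays, where the high-fat cancers also inform it, 15197 genes passed, 7835 of them among the 8380 and all of these in the same direction. All normal tissues of the series were read on scan day 2. The day effect thus came from cancers alone and was taken as equal in all groups. Members of the gene lists below past the threshold with the block over 6 arrays were 6 adipocyte markers, 2 mast cell and neutrophil genes and 1 each of the fatty acid synthesis, glycolysis and transporter lists. With the block over 20 arrays all 22 adipocyte markers fell, 15 of 17 luminal markers, 6 of 10 EGF family genes and 9 of 20 glycolysis genes rose, and 0 of 13 mast cell and neutrophil genes passed by limma (0 at an unadjusted p under 0.05).

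**Figure D1:**
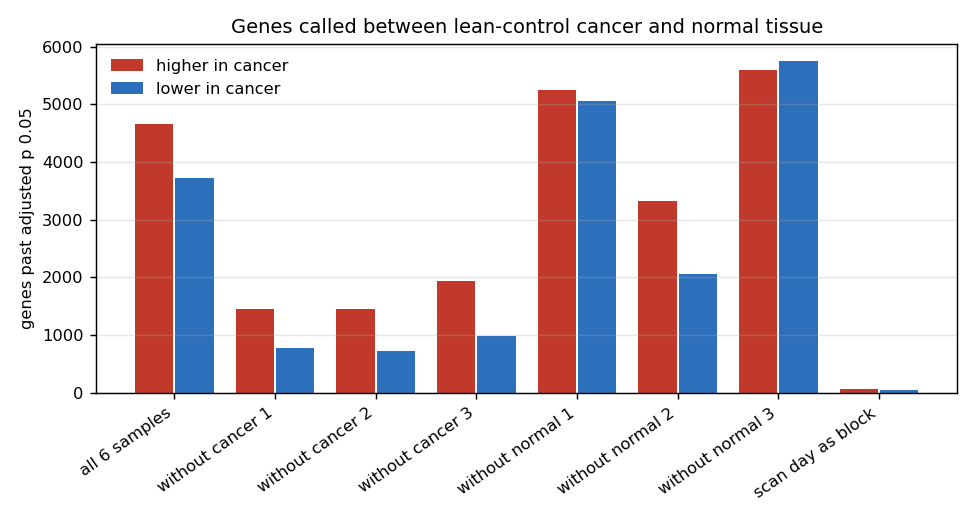
Bars give the number of genes past an adjusted p of 0.05 (y axis) that were higher (red) or lower (blue) in lean-control cancers than in normal tissue, with all 6 samples, without each sample in turn, and with scan day as a block. Calls ranged from 2162 without cancer 2 to 11356 without normal 3, and scan day as a block left 55 higher and 38 lower.

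The largest rise was that of Mmp3, stromelysin-1, a protease that cleaves matrix proteins. It read 13.70, 10.95 and 15.87 in the cancers, against 7.63, 7.41 and 7.76 in the normal tissues. Every cancer was far above every normal tissue, and the cancers differed among themselves by 4.93 log2 units; the difference was 5.91 ± 1.18, or 60.0-fold (adjusted p = 0.0221). Areg, the EGF receptor ligand amphiregulin, which acts downstream of oestrogen in ductal growth, came next at 16.62, 16.69 and 17.37 in the cancers, against 12.23, 12.91 and 10.96 in the normal tissues. The groups lay over 3 log2 units apart, and Areg was 29.0-fold higher in cancer (4.86 ± 0.52, adjusted p = 0.00510). Tmem54, a membrane protein, rose by 4.33 and Bst2, an interferon-induced antiviral protein that tethers virus particles, by 4.16. The tight junction gene Cldn7 rose by 4.04, the adhesion molecule Epcam by 3.43 and the basal keratin Krt5 by 3.38.

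Further large rises were Wnt4, a progesterone-induced ligand (3.73), Padi3, a peptidylarginine deiminase (3.67), the water channel Aqp5 (3.60), Gp2 (3.57), the glutathione-degrading enzyme Ggt1 (3.57), Lypd3 (3.50) and Rasd2, a small GTPase (3.42). Of the 15 largest rises, Tmem54, Cldn7, Epcam and Krt5 had normal tissues more than 2 log2 units apart, with normal 2 highest in each.

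The largest falls included many genes of fat cells. Retn, the adipokine resistin, read 6.79, 6.94 and 7.09 in the cancers, against 15.78, 15.44 and 15.65 in the normal tissues. The groups were far apart and tight, and the fall was 411-fold (-8.68 ± 0.14, adjusted p = 4.75e-05). Adipoq, the adipokine adiponectin, read 6.72, 6.80 and 6.94 in the cancers, against 16.20, 15.35 and 14.88 in the normal tissues, a 403-fold fall (adjusted p = 0.000894). Ces1d, a carboxylesterase that hydrolyses lipids, was below the limit for well above background on every cancer array and read 6.21, 6.44 and 6.51 in the cancers, against 15.49, 14.66 and 14.25 in the normal tissues. It was at least 304-fold lower in cancer, the dim side being set at the lowest signal that counts as above background or the probe's own (adjusted p = 0.000894). Aqp7, the glycerol channel of adipocytes, was likewise below background in all cancers and at least 46.0-fold lower.

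Fabp4, the fatty acid carrier of adipocytes, fell by 7.89, Cfd, the complement protease adipsin, by 6.54, and Scd, which makes oleate from stearate, by 6.27. Grifin, a galectin-related lens protein, fell by 7.07, the neutral amino acid transporter Slc7a10 fell by 6.10, the carbonic anhydrase Car3 fell by 5.80 and Mst1, a hepatocyte growth factor-like protein, by 5.67. Cpa1, a carboxypeptidase, fell by 5.52, Ramp1, a partner of the calcitonin-type receptors, fell by 5.42 and the serpin Serpina3n fell by 5.24. Ccl21, a lymph node chemokine, fell by 5.72 and was the exception in its spread, at 6.83, 7.55 and 9.52 in the cancers, against 11.56, 12.82 and 16.66 in the normal tissues; its normal tissues spanned 5.10 log2 units.

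**Figure D2:**
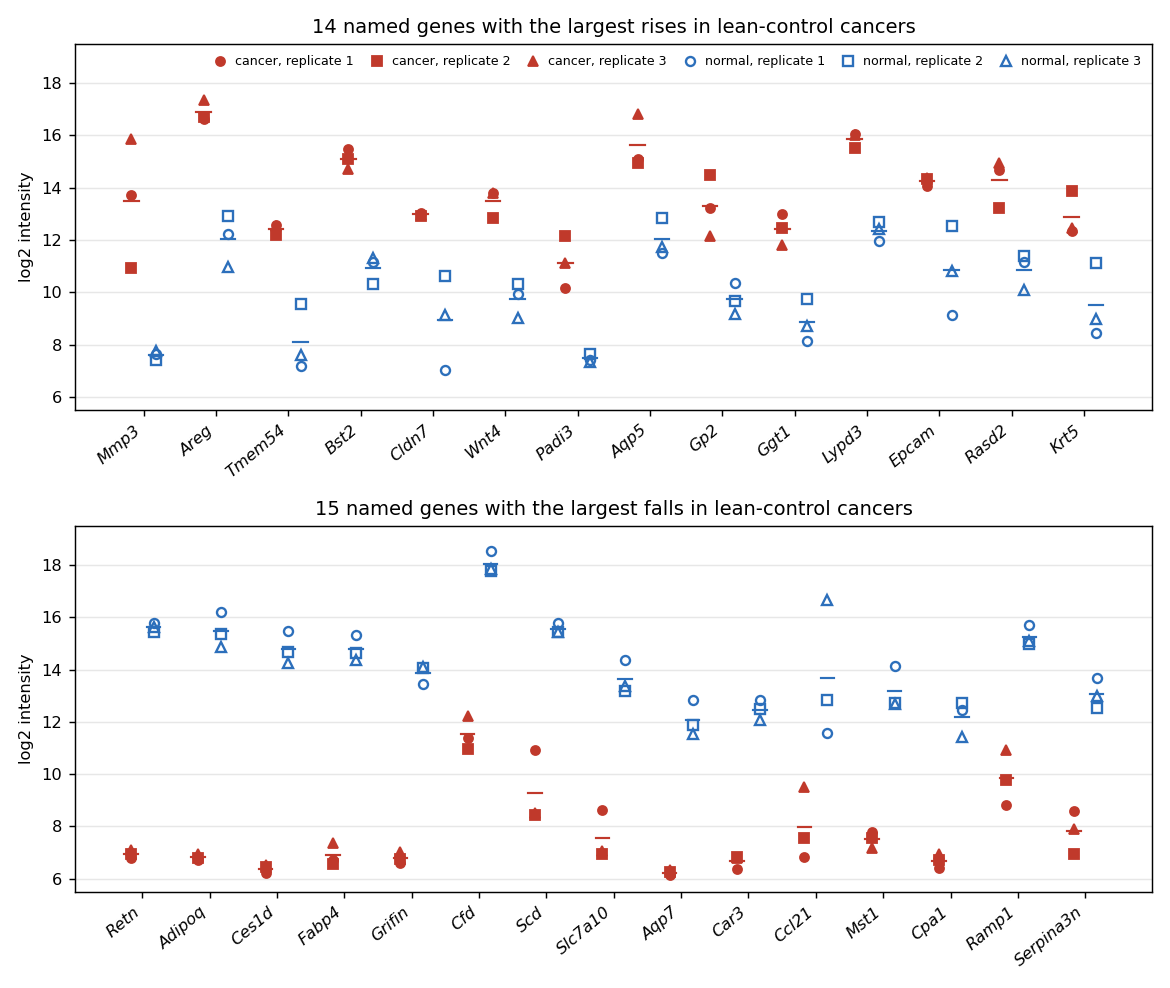
Points are log2 intensities (y axis) of each lean-control cancer (red, filled) and normal tissue (blue, open) for 14 of the 15 named genes with the largest rises (upper panel) and the 15 with the largest falls (lower panel) in cancer, with group means as short lines and symbols for replicates. The groups do not overlap in any gene shown, as the choice of genes required, and Mmp3 is widest among cancers and Ccl21 among normal tissues.

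Promoters of 7 genes with large differences or large spread were read from RefSeq's table (GRCr8, from 250 bases before to 50 after the gene's start), and 4 motifs were looked for on both strands, namely C/EBP (TTGCNNAA), STAT (TTCNNNGAA), AP-1 (TGANTCA) and CRE (TGACGTCA). Of 33469 promoters of this length in the table, 10.6% hold the C/EBP letters, 8.87% the STAT letters, 7.33% the AP-1 letters and 1.83% the CRE letters. The first pair below are the largest rises, Mmp3 with 1 AP-1 match and Areg with 1 CRE match in capitals (Mmp3 also holds 1 C/EBP match, left in lower case). The next is the fall Ces1d, with 2 C/EBP matches in capitals, and the last pair, Csn2 and Glycam1, are milk genes with the widest spread among samples, each with 1 STAT match in capitals. The promoters of Adipoq and Retn held 0 matches to the 4 motifs in this window. A match describes the letters and is not a site shown to be used.
Mmp3, chr8:12925031-12925330, plus strand: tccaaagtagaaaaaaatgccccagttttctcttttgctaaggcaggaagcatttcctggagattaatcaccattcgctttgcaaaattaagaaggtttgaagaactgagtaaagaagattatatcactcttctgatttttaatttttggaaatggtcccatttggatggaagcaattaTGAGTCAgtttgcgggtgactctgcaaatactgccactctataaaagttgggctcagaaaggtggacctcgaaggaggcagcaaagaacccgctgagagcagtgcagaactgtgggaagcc
Areg, chr14:17265592-17265891, minus strand: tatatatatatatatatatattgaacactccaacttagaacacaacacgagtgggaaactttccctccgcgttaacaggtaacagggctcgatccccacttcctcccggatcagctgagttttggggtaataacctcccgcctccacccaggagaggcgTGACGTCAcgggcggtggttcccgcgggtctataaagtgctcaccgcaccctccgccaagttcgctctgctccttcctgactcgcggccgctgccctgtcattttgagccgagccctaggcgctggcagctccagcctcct
Ces1d, chr19:30046244-30046543, plus strand: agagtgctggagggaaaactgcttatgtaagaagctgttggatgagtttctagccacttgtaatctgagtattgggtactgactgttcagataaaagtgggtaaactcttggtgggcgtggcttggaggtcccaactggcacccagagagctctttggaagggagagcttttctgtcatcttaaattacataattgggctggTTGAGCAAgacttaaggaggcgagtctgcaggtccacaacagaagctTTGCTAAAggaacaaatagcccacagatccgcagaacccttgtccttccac
Csn2, chr14:20601574-20601873, plus strand: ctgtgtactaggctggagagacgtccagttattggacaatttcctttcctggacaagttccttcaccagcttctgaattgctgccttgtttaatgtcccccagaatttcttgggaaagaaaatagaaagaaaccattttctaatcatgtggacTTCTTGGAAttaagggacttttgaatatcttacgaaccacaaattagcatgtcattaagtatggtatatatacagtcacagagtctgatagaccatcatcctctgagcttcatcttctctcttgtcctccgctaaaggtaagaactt
Glycam1, chr7:136561250-136561549, minus strand: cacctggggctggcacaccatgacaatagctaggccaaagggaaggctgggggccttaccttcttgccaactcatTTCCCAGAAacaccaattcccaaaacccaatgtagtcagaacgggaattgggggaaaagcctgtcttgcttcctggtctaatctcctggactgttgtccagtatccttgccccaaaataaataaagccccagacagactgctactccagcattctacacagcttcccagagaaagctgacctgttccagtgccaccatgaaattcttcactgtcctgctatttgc

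Markers of adipocytes were low in every cancer. Of 22 tested, 20 fell (10.2% of all genes did), 0 rose and 22 had groups that did not overlap (51.9% of all genes), with a median difference of -3.12. The mean of the 22 was 7.63, 7.58 and 7.70 in the cancers, against 12.11, 11.42 and 11.23 in the normal tissues, and all 22 were well above background on all normal arrays, against 12 on all cancer arrays and 4 on none. The fat-cell regulator Pparg fell by 2.00, the glucose transporter Slc2a4 fell by 4.95, the lipoprotein lipase Lpl by 2.97, the fatty acid uptake receptor Cd36 by 2.46, the hormone-sensitive lipase Lipe by 1.52 and Pck1, which feeds glycerol synthesis in fat, by 4.84. Lep, leptin, was below background in all cancers and read 6.30, 6.38 and 6.42 in the cancers, against 7.25, 6.75 and 6.73 in the normal tissues, at least 1.28-fold lower, with an adjusted p of 0.0652 that missed the threshold. Counts of falls were 15 to 16 without a single cancer and 18 to 21 without a single normal tissue, 6 with scan day as a block, at a median of -2.92, and 22 with that block over 20 arrays, at -2.74.

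Among genes of lipid metabolism, more passed the threshold as lower than as higher. Over all genes 10.2% fell and 12.7% rose. Of 13 fatty acid synthesis genes 4 fell and 0 rose (median -0.55), against 7 and 1 when processed signals were scaled to the 75th percentile. The elongase Elovl6 fell by 1.10, Thrsp, a lipogenic regulator, by 4.48 and Acaca, which commits acetyl-CoA to fat, by 0.93, while fatty acid synthase Fasn read 15.03, 14.44 and 14.76 in the cancers, against 15.75, 14.73 and 15.40 in the normal tissues and Acly, which supplies acetyl-CoA, 15.29, 14.21 and 14.47 in the cancers, against 14.16, 13.87 and 14.29 in the normal tissues. Fasn and Acly overlapped between the groups and did not pass (adjusted p = 0.209 and 0.216). Of 21 cholesterol synthesis genes 4 fell and 0 rose, although 14 of the 21 differences were above 0 (median 0.21). With slide as a block the median was 0.60, which is cancer 1 minus normal 1 alone. With all 20 arrays in the fit 4 fell and 4 rose. Insig1, which holds back synthesis when sterols are high, fell by 2.67, the reductase Dhcr7 by 1.38 and the kinase Pmvk by 0.59. Of 22 fatty acid oxidation genes 7 fell and 1 rose (median -0.41), with falls of 1.82 for the mitochondrial importer Cpt1b, 3.23 for Acsl1, 1.34 for Echs1, 0.76 for Hadh and 0.72 for Acadvl, and with the regulator Ppara at -0.01 ± 0.10. Without a single cancer 1 to 3 of the oxidation genes fell, and without normal 2, 2. Relative to the median of all genes the oxidation list lay at -0.37, but at 0.90 and 0.20 when arrays were scaled to the 75th percentile.

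Luminal epithelial markers, as a list, had higher means in every cancer. Of 17 tested, 15 rose (12.7% of all genes did) and 0 fell, 16 had groups that did not overlap, and the median difference was 2.52, against -0.04 over all genes. The mean of the 17 was 12.22, 12.23 and 12.42 in the cancers, against 9.15, 10.87 and 9.67 in the normal tissues. The luminal keratin Krt18 read 18.05, 17.86 and 18.30 in the cancers, against 14.75, 16.64 and 15.27 in the normal tissues and rose by 2.52 ± 0.48 (adjusted p = 0.0201). Krt8 rose by 2.77, the cadherin Cdh1 by 2.59, the claudin Cldn3 by 3.10 and the protease St14 by 3.11, and in each normal 2 was the highest normal tissue. Gata3, which specifies luminal cells, was the exception, with even normal tissues, at 10.29, 10.18 and 10.48 in the cancers, against 8.07, 7.74 and 8.02 in the normal tissues. It rose by 2.37 ± 0.14 (adjusted p = 0.00227). Prom2, a membrane protein of protrusions, rose by 3.24, and Prlr, the prolactin receptor, by 1.88.

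Many luminal calls were lost without single samples while the medians moved little. Without any single cancer only 2 of the 17 passed, at medians of 2.40 to 2.59, without normal 3 11 passed and without normal 1 14, and with scan day as a block 0 passed by limma (12 at an unadjusted p under 0.05), at a median of 2.40. With that block over 20 arrays 15 passed, at a median of 2.58. Within the slide that held both tissues, cancer 1 minus normal 1 had a luminal median of 3.27 and an adipocyte median of -3.64, from 1 sample of each.

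Basal and myoepithelial markers were mixed, with 2 of 10 higher and 1 lower (median 0.48). Krt5 read 12.36, 13.88 and 12.44 in the cancers, against 8.44, 11.12 and 8.99 in the normal tissues and Krt14, its partner keratin, 13.65, 15.19 and 14.11 in the cancers, against 12.23, 13.93 and 12.50 in the normal tissues, so that the rise of Krt5 passed (adjusted p = 0.0331) and Krt14 did not (0.119). Itgb4, an anchoring integrin, rose by 1.92, the smooth muscle actin Actg2 fell by 1.09 and the oxytocin receptor Oxtr differed by -1.28 ± 0.50. Without any single cancer, 0 of the 10 rose by limma's test, with 3 to 5 higher at an unadjusted p under 0.05.

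Milk genes varied within both groups and 11 of the 12 tested did not pass, the exception being the folate receptor Folr1, which fell by 1.29. The caseins and whey proteins are made by alveolar cells under prolactin. Csn2, beta-casein, read 17.04, 8.20 and 14.49 in the cancers, against 7.49, 15.29 and 10.22 in the normal tissues, and its difference of 2.24 ± 2.86 was smaller than its SE (adjusted p = 0.582). Cancer 1 stood highest and normal 1 lowest, with over 7 log2 units between samples of the same group. Wap, whey acidic protein, read 11.48, 8.95 and 12.13 in the cancers, against 8.34, 15.39 and 12.38 in the normal tissues. Csn3 and Lalba, the kappa-casein and the lactose synthase subunit, differed by -0.02 ± 1.13 and 0.06 ± 1.08. The list's median of 0.20 was -0.20 and -0.21 when arrays were scaled to the 75th percentile, from processed and from background-corrected signals, -0.06 in the authors' deposited table, and 1.03 without normal 2. Less the all-gene median, the list lay at 0.24, at 1.19 and 0.44 under these scalings, and at 0.17 in that table. With slide as a block the median was 2.95, which is cancer 1 minus normal 1 alone. With that block over 20 arrays it was 2.64, with 4 of 12 higher and 0 lower.

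**Figure D3:**
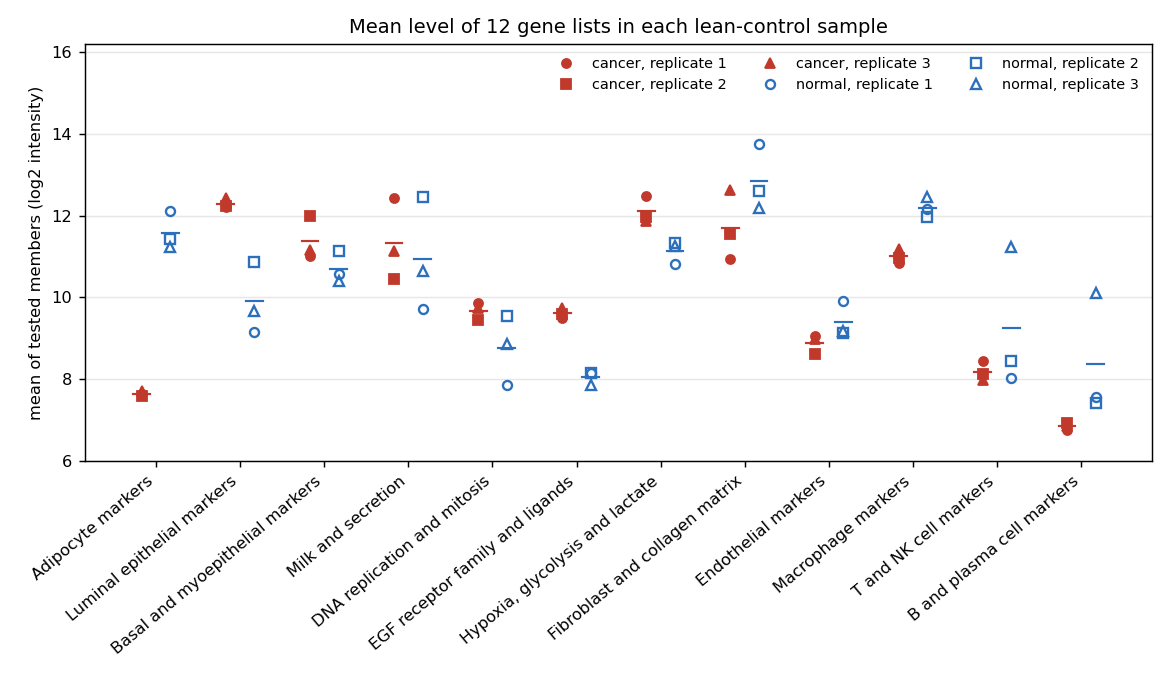
Each point is the mean log2 intensity (y axis) of the tested members of a gene list in 1 lean-control cancer (red, filled) or normal tissue (blue, open), with short lines for group means. Adipocyte, luminal, EGF family and glycolysis lists separate the groups, while normal 3 stands alone in T, NK and B cell lists, normal 1 in fibroblast genes and cancer 1 and normal 2 in milk genes.

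Genes of DNA replication and mitosis differed by a median of 1.03, with 14 of 14 differences above 0, but only Rrm1, a subunit of ribonucleotide reductase, passed (1.30 ± 0.35, adjusted p = 0.0467). Normal 2 reached the cancers' level. The mean of the 14 was 9.86, 9.44 and 9.73 in the cancers, against 7.86, 9.54 and 8.86 in the normal tissues. The mitotic kinases Cdk1 and Plk1 read 11.96, 11.59 and 11.90 in the cancers, against 9.74, 12.18 and 10.05 in the normal tissues, and 11.94, 11.40 and 11.82 in the cancers, against 9.05, 11.12 and 9.86 in the normal tissues (adjusted p = 0.220 and 0.0621), and the sliding clamp Pcna differed by 0.51 ± 0.42. Without normal 2, 5 of the 14 rose, at a median of 1.43. With all 20 arrays in the fit 6 rose, and with processed signals scaled to the 75th percentile 4. With slide as a block the median was 2.26, which is cancer 1 minus normal 1 alone. The proliferation marker Mki67 had no named probe.

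Among cyclins, their inhibitors and Myc, 2 of 12 rose and 1 fell (median 0.41), near the shares over all genes (12.7% and 10.2%). Cdkn2a, which encodes the p16 and ARF tumour suppressors, read 9.07, 9.50 and 9.93 in the cancers, against 6.36, 6.53 and 6.71 in the normal tissues. The groups were well apart, and it rose by 2.97 ± 0.24 (adjusted p = 0.00328). Mycn rose by 1.45 and the D cyclin Ccnd3 fell by 0.84, while Ccnd1 (1.40 ± 0.41), Cdkn1a (1.03 ± 0.39) and Myc (0.54 ± 0.36) did not pass. Of 10 p53 and damage response targets, limma called 0, with 4 at an unadjusted p under 0.05, against 41.7% of all genes. Under either scaling to the 75th percentile 2 rose. Bax, a pro-apoptotic target, differed by 0.41 ± 0.18, Gadd45a by -0.59 ± 0.23 and Ccng1 by 0.02 ± 0.23.

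The EGF receptor family and its ligands leaned upwards, with 6 of 10 higher and 0 lower (median 1.06), against 12.7% and 10.2% of all genes. The ligand Tgfa read 10.80, 10.59 and 10.94 in the cancers, against 6.94, 8.39 and 8.75 in the normal tissues, and rose by 2.75 ± 0.47 (adjusted p = 0.0146). Ereg, epiregulin, rose by 2.35. The ligand Egf rose by 0.59 but was -0.32 and -0.25 when arrays were scaled to the 75th percentile, from processed and from background-corrected signals, and -0.30 in the authors' deposited table, not passing in any of them. Among receptors, Erbb2 read 10.23, 10.21 and 10.39 in the cancers, against 8.04, 8.38 and 7.58 in the normal tissues, every cancer above every normal tissue, a rise of 2.28 ± 0.21 (adjusted p = 0.00395). Erbb3, its kinase-poor partner, rose by 0.94. Egfr itself read 9.46, 10.11 and 9.85 in the cancers, against 10.97, 9.18 and 8.85 in the normal tissues, with overlapping groups and normal 1 highest, and did not pass (adjusted p = 0.869). Without a single cancer, 3 to 4 of the 10 rose.

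Hormone genes went both ways, with 4 of 13 higher and 2 lower (median -0.08), against 12.7% and 10.2% of all genes. When processed signals were scaled to the 75th percentile 4 rose and 6 fell (median -0.96), with background-corrected signals so scaled the median was -0.65, and over the 6 members in the authors' deposited table it was 1.32. Less the all-gene median of each setting these were 0.43, -0.0069 and 1.55, against -0.04 after quantile normalization. The progesterone receptor gene Pgr read 8.53, 8.22 and 9.04 in the cancers, against 6.33, 6.41 and 6.24 in the normal tissues, so the normal tissues were near background and the cancers clearly above, and it rose by 2.27 ± 0.22 (adjusted p = 0.00423). Wnt4, which progesterone induces, read 13.81, 12.86 and 13.80 in the cancers, against 9.93, 10.32 and 9.01 in the normal tissues. The oestrogen receptor gene Esr1 read 6.83, 7.05 and 6.79 in the cancers, against 6.39, 6.45 and 6.32 in the normal tissues, a rise of 0.50 ± 0.11 at the low end of the scale, but -0.57 and -0.28 (not passing) when arrays were scaled to the 75th percentile from processed and from background-corrected signals. It was above background on 2 arrays of each group. The transcriptional coactivator Cited1 rose by 2.85, while the growth hormone receptor Ghr fell by 4.10. The oestrogen target Tff1 was below background in all cancers and at least 1.30-fold lower (adjusted p = 0.0210). Tnfsf11, the progesterone-induced cytokine RANKL, was below background in all cancers and did not pass (adjusted p = 0.378), with normal 3 high at 8.32. Without a single cancer, 2 of the 13 rose and 1 fell.

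Among IGF and insulin genes, 5 of 15 rose and 3 fell, against 12.7% and 10.2% of all genes. Their median was 0.38, but -0.49 and -0.43 when arrays were scaled to the 75th percentile, from processed and from background-corrected signals. In the authors' deposited table it was -0.20. Less the all-gene median, the list lay at 0.42, at 0.89 and 0.21 under these scalings, and at 0.03 in that table. The growth factor Igf1 read 12.50, 13.10 and 14.23 in the cancers, against 17.54, 15.91 and 15.59 in the normal tissues, and fell by 3.07 (adjusted p = 0.0261). Its receptor gene Igf1r rose by 1.10, the binding protein gene Igfbp2 rose by 2.77 and Igfbp6 fell by 3.50. Akt1, a kinase below the insulin receptor, rose by 1.71, Akt2 by 0.68 and the insulin receptor gene Insr by 0.38 (-1.01 and -0.48 under the same scalings, not passing), and the adaptor Irs1 fell by 1.46. Igf2, a fetal growth factor, read 17.74, 8.71 and 16.29 in the cancers, against 12.68, 11.63 and 10.88 in the normal tissues, with 2 cancers far above and cancer 2 below all normal tissues, and did not pass (adjusted p = 0.451).

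Of 13 Wnt and TGF-beta ligands and antagonists 3 rose and 2 fell (median 0.07, but -0.88 and -0.62 with arrays scaled to the 75th percentile). Less the all-gene median, the list lay at 0.11, and at 0.51 and 0.03 under these scalings. Wnt5a rose by 2.61, the BMP-like Gdf10 by 2.31 and the activin subunit Inhba by 1.38, whereas the activin antagonist Fst fell by 2.77 and Ltbp1 by 2.17. Tgfb3 differed by 1.46 ± 0.49 and did not pass.

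Of 14 fibroblast and collagen genes 2 fell and 1 rose (median -1.22), near the shares over all genes (10.2% and 12.7%). The count of falls depended on scaling, at 8 and 6 when processed and background-corrected signals were scaled to the 75th percentile and 7 in the authors' deposited table. Among all genes 19666 and 3258 of 36658 fell under these scalings, and 5072 of 19511 in that table. Dcn, the proteoglycan decorin, fell by 2.69 and Fap, a fibroblast protease, by 1.49, while Eln, elastin, rose by 0.86 (adjusted p = 0.0470, and 0.574 when processed signals were scaled to the 75th percentile). The collagen gene Col3a1 read 14.43, 15.27 and 16.18 in the cancers, against 17.60, 16.46 and 15.92 in the normal tissues and the matrix protein Sparc 14.47, 15.95 and 16.31 in the cancers, against 18.13, 16.91 and 16.25 in the normal tissues. In both the groups overlapped, cancer 1 was lowest and normal 1 highest. Without normal 3, 4 of the 14 fell.

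Of 17 matrix proteases and inhibitors 5 rose and 2 fell (median 0.01, but -0.39 and -0.33 when arrays were scaled to the 75th percentile, and -0.36 in the authors' deposited table). Mmp16 rose by 1.80, matrilysin Mmp7 by 1.70, urokinase Plau by 1.07 and tissue plasminogen activator Plat by 0.56 (-0.039 and -0.075 under these scalings, not passing), next to Mmp3, while Mmp23 fell by 4.11 and the inhibitor Timp2 by 1.37. The gelatinases Mmp2 and Mmp9 (-1.13 ± 0.45 and -0.17 ± 0.46) and the inhibitor Timp1 (-0.75 ± 0.57) did not pass. Among 9 endothelial markers 2 fell, Esam by 1.65 and Emcn by 1.10, and 1 rose, the VEGF receptor Flt1 by 1.30 (median -0.77, with 4 falls and 0 rises when processed signals were scaled to the 75th percentile); Pecam1 (-0.77 ± 0.22) and Kdr (-1.23 ± 0.50) did not pass.

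Macrophage markers fell or did not pass. Of 14 tested, 5 fell and 0 rose (median -1.22), and the means were 10.85, 10.97 and 11.18 in the cancers, against 12.17, 11.96 and 12.45 in the normal tissues. The complement subunits C1qa, C1qb and C1qc fell by 1.78, 2.28 and 1.34, the signalling adaptor Tyrobp by 2.12 and Aif1 by 1.83. Cd68 (-1.09 ± 0.33), Cd14 (-0.74 ± 0.64) and Csf1r (-0.39 ± 0.36), the receptor for the macrophage growth factor, did not pass. Without a single cancer 2 to 3 of the 14 fell. Relative to the median of all genes the list lay at -1.18, but at -0.08 when processed signals were scaled to the 75th percentile.

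Lymphocyte genes differed chiefly in normal 3. Limma called 0 of 22 T and NK cell markers, with 2 at an unadjusted p under 0.05 (41.7% of all genes), at a median of -0.89. It called 9 and 4 of them lower when processed and background-corrected signals were scaled to the 75th percentile (medians -2.31 and -1.47) and 3 of 15 in the authors' deposited table, while the slide that held both tissues gave a median of 0.35. The list mean was 8.44, 8.12 and 7.97 in the cancers, against 8.03, 8.45 and 11.24 in the normal tissues. Cd8a, the coreceptor of cytotoxic T cells, read 7.98, 7.65 and 7.66 in the cancers, against 6.75, 7.01 and 10.81 in the normal tissues, and the T cell genes Cd2 and Cd5 differed by -0.66 ± 0.71 and -0.83 ± 0.88. Without normal 3 the median was 0.05, with 2 higher and 2 lower, and Cd8a was then 0.88 higher in cancer (adjusted p = 0.0201). Of 5 B cell markers 1 fell, the IgE receptor Fcer2 by 1.94 (5 and 4 fell under the 2 scalings), and the B cell receptor subunit Cd79b read 6.53, 6.56 and 6.46 in the cancers, against 7.48, 7.32 and 13.00 in the normal tissues and was below background in all cancers; Cd37 differed by -1.53 ± 0.83.

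Of 9 genes of lymphoid tissue stroma 3 fell and 1 rose (median -2.16, or -1.30 without normal 3), against 5 and 0 under either scaling to the 75th percentile. Ccl21 is given above, the stromal chemokine Cxcl12 fell by 2.18 and the vascular addressin Madcam1 by 1.20, while Lifr rose by 0.71 (-0.17 under both scalings to the 75th percentile and -0.15 in the authors' deposited table, not passing). The B cell chemokine Cxcl13 read 8.77, 6.79 and 7.63 in the cancers, against 10.49, 9.57 and 13.90 in the normal tissues, and Ltb, which builds lymphoid tissue, differed by -2.16 ± 1.24; both were highest in normal 3. Of 9 MHC class II genes limma called 0, with 3 at an unadjusted p under 0.05, against 41.7% of all genes (median -1.12). It called 4 and 3 lower when processed and background-corrected signals were scaled to the 75th percentile. Of all 36658 genes it called 19666 and 3258 lower under these scalings. All 9 were highest in normal 3 among normal tissues, a share that was not counted over all genes. Cd74, the invariant chain, read 15.12, 14.22 and 14.85 in the cancers, against 15.54, 14.75 and 17.25 in the normal tissues, RT1-Da differed by -1.71 ± 0.57, RT1-Ba by -1.13 ± 0.51 and RT1-DMa by -0.13 ± 0.29. Without normal 3, 3 of the 9 fell. Relative to the median of all genes the class II list lay at -1.08, but at 0.03 when processed signals were scaled to the 75th percentile.

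Of 13 mast cell and neutrophil genes 2 fell, the neutrophil proteins S100a8 by 0.55 and S100a9 by 1.25 (median -0.41, with 5 falls when processed signals were scaled to the 75th percentile). Over all genes 10.2% fell, and 19666 of 36658 did under that scaling. The mast cell chymase Cma1 read 6.71, 12.46 and 13.81 in the cancers, against 14.35, 14.23 and 13.56 in the normal tissues, with cancer 1 near background and the other cancers within 2 log2 units of the normal tissues, and the mast cell receptor Kit differed by -0.50 ± 0.28. Of 22 interferon-induced genes 2 rose and 0 fell (median 0.54), namely Bst2 and the peptide transporter Tap1 (2.11). The antiviral regulator Irf7 (0.72 ± 0.82) and Mx2 (2.30 ± 0.72) did not pass, and the list mean was 11.36, 10.74 and 10.04 in the cancers, against 9.72, 9.70 and 10.34 in the normal tissues, cancer 1 being highest and cancer 3 within the normal range. Without cancer 3, and likewise without normal 3, 5 of the 22 rose. With slide as a block the median was 1.35, which is cancer 1 minus normal 1 alone.

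Of 19 inflammation genes 1 rose and 3 fell (median -0.28). When processed signals were scaled to the 75th percentile 3 rose and 12 fell (median -1.98), with background-corrected signals so scaled 3 rose and 4 fell (median -0.98), and over the 10 members in the authors' deposited table the median was 0.03. The rise was Cx3cl1, a membrane chemokine (2.24), and the falls were the chemokines Ccl7 by 1.68 and Cxcl6 by 1.32 and the prostaglandin synthase Ptgs2, which was below background in all cancers and at least 1.17-fold lower (adjusted p = 0.0393). The cytokines Il6 and Tnf were below background in all cancers and did not pass (adjusted p = 0.0834 and 0.186), and Il1b (-0.93 ± 0.57) and the monocyte attractant Ccl2 (-1.39 ± 0.46) did not pass.

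Glycolysis genes rose more often than they fell. Of 20 genes of hypoxia, glycolysis and lactate 9 rose and 2 fell, and 17 had groups that did not overlap (median 1.08). Over all genes 12.7% rose, 10.2% fell and 51.9% did not overlap. The enolase Eno1 read 16.80, 16.78 and 16.26 in the cancers, against 14.75, 14.81 and 14.73 in the normal tissues, and rose by 1.85 ± 0.17 (adjusted p = 0.00389). The lactate exporter Slc16a3 rose by 3.22, the aldolase Aldoa by 1.97, the phosphofructokinase Pfkl by 1.81, the glucose transporter Slc2a1 by 1.49, the hexokinase Hk1 by 1.38 and the phosphoglycerate mutase Pgam1 by 1.35. Ldha, the lactate dehydrogenase subunit, differed by 0.96 ± 0.27 and narrowly missed (adjusted p = 0.0530), and Hk2 differed by 0.36 ± 0.13. The hypoxia-induced Adm and Bnip3 fell by 1.57 and 1.05, while Egln3, also hypoxia-induced, rose by 1.69. Without a single cancer 3 to 5 of the 20 rose.

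Of 22 genes of the TCA cycle and respiratory chain 6 rose and 4 fell (median -0.02, and 0.04 when processed signals were scaled to the 75th percentile). The rises included the ATP synthase subunits Atp5b (1.57) and Atp5a1 (1.55), the complex III subunit Uqcrc1 (1.05) and the complex I subunit Ndufs1 (1.34), and the falls the cytochrome oxidase subunits Cox4i1 (0.95 lower) and Cox5b (0.87 lower) and the complex II subunit Sdhc (0.84 lower). Citrate synthase Cs (-0.17 ± 0.18) and Idh3a (0.89 ± 0.42) did not pass. Of 14 transporters 3 rose and 3 fell (median 0.54, but -0.37 and -0.28 when arrays were scaled to the 75th percentile, and -0.47 in the authors' deposited table). Less the all-gene median, the list lay at 0.58, at 1.02 and 0.37 under these scalings, and at -0.24 in that table. Slc7a7 rose by 2.26 and the glutamine transporter Slc38a2 by 1.002, while Slc1a5 fell by 3.73 and the glutamate transporter Slc1a3 by 3.06. Slc7a5 (0.70 ± 0.20) and Slc38a4 (0.02 ± 0.41) did not pass, and Slc6a14 was below background in all normal tissues and at least 1.82-fold higher in cancer (adjusted p = 0.0430).

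Of 15 chaperone and unfolded protein response genes 5 rose and 0 fell (median 0.65). The disulfide isomerases Pdia3, Pdia4 and Pdia6 rose by 1.68, 0.90 and 0.80, Dnajb11 by 1.25 and Hsp90b1 by 0.92, while Hspa5 (0.79 ± 0.27) and the stress factor Atf4 (-0.22 ± 0.12) did not pass. Of 23 oxidative stress genes 8 fell and 4 rose (median -0.61). Sod3, the extracellular superoxide dismutase, fell by 4.41, the peroxidase Gpx3 by 3.16, the conjugating enzyme Gstm2 by 2.96 and catalase, Cat, by 0.61. Gpx4, Prdx6, Gpx1 and Gstm1 fell by 1.58, 1.18, 0.99 and 1.34. The rises were the glutathione peroxidase Gpx2 (1.25), the thioredoxin reductase Txnrd1 (0.67), the quinone reductase Nqo1 (0.64, but -0.39 and -0.27 when arrays were scaled to the 75th percentile, not passing) and Gclc of glutathione synthesis (0.68, but -0.10 and -0.19), and Gstp1, a conjugating enzyme, differed by 0.96 ± 0.33.

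Of 21 immediate early genes 3 rose and 3 fell (median 0.42, but -0.10 and -0.19 when arrays were scaled to the 75th percentile). Less the all-gene median, the list lay at 0.46, and at 1.29 and 0.45 under these scalings. Fos rose by 1.16, Ier2 by 2.10 and Fosl1 by 0.70 (Fosl1 was -0.10 and -0.19 under these scalings, not passing), while Klf2 fell by 2.93, Klf4 by 2.22 and Dusp1 by 0.81. Jun (0.51 ± 0.39), Egr1 (1.08 ± 0.36) and Atf3 (0.20 ± 0.52) did not pass.

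Most markers of tissues that can lie beside the gland did not pass, although many more fell when processed signals were scaled to the 75th percentile. Under that scaling 19666 of all 36658 genes fell. Among 14 genes of nerve and Schwann cells 5 fell and 0 rose (median -0.42), against 11 and 0 under that scaling (median -2.47). The myelin gene Pmp22 read 10.92, 11.89 and 11.54 in the cancers, against 14.64, 13.35 and 13.40 in the normal tissues, and fell by 2.35, Gfap by 1.51, and Mag by 0.82. S100b was below background in all cancers and at least 1.96-fold lower (adjusted p = 0.00608), while Mbp differed by -0.27 ± 0.19. Of 13 skeletal muscle genes 2 fell, Tnnt3 by 1.42 and Des by 1.82 (median -0.32, with 7 falls and 1 rise under that scaling), while Acta1, Ckm and Mylpf differed by 0.03 ± 0.25, -0.59 ± 0.32 and -0.32 ± 0.33. Of 7 skin keratinocyte genes 1 fell, Krt13 by 1.17 (5 under that scaling), and Krt1, Krt15 and Tgm1 differed by 0.33 ± 0.13, 2.23 ± 0.84 and 0.41 ± 0.84, of which Krt1 was -1.07 and passed when processed signals were scaled to the 75th percentile (adjusted p = 0.0468). Of 5 brown fat genes 1 rose, Dio2 by 0.86 (3 fell and 0 rose under the same scaling). Ucp1 differed by 0.22 ± 0.18, but was -1.77 and passed under that scaling (adjusted p = 0.0489), and Ppargc1a, below background in all cancers, did not pass (adjusted p = 0.113). Haemoglobin beta, Hbb, read 9.03, 7.86 and 7.25 in the cancers, against 12.78, 10.84 and 10.17 in the normal tissues, a fall of 3.22 with normal 1 highest, and Alas2, of haem synthesis, differed by -0.82 ± 0.96.

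The 3 normal tissues were less alike than the 3 cancers. The median SD of a gene was 0.259 over the normal tissues, against 0.117 over the cancers, and it was larger over normal tissues in 72.4% of genes. An SD above 1 log2 unit was found in 1532 genes (4.18%) over the normal tissues, against 301 (0.821%) over the cancers. The contrast was smaller when processed signals were scaled to the 75th percentile, at 4352 genes (11.9%) against 2754 (7.51%). Median SDs were then 0.678 over the normal tissues and 0.309 over the cancers. After quantile normalization the OP normal tissues were closer together, at a median SD of 0.143 (n = 3), and the OR value was 0.0861 (n = 2). A median SD over 2 samples runs lower than one over 3, so the OR value cannot be set against the others. Correlations between arrays over genes ran from 0.983 to 0.986 among the cancers and from 0.933 to 0.963 among the normal tissues, and normal 1 was the one least like the others. Without it the median SD of the normal tissues was 0.145, against 0.243 without normal 2 and 0.195 without normal 3, each over 2 samples. With 3 samples a group the spread itself was not tested.

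The tissues stood apart in different genes. A gene was counted as standing apart in a sample when it lay over 2 log2 units beyond both other samples of its group and those lay within 1 of each other. Normal 1 did so upwards in 129 genes and downwards in 49, normal 2 in 32 and 4, and normal 3 in 253 and 3, against 15 and 5, 8 and 7, and 40 and 7 in cancers 1, 2 and 3.

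Normal 3 was high in lymphocyte genes. The 10 named genes with the largest SD over the normal tissues included Il22ra2, a soluble receptor for interleukin 22, at 7.22, 7.64 and 7.26 in the cancers, against 6.34, 6.98 and 13.97 in the normal tissues. The lymphocyte genes Cd79b, Cd3d, Sit1 and Tnfrsf14 were also among them, with normal 3 at 13.00, 15.14, 13.35 and 12.05 and no other normal tissue above 7.48, 10.47, 8.42 and 6.42. All 5 B cell markers and 19 of 22 T and NK cell markers were highest in normal 3 among the normal tissues. The share of all genes highest in normal 3 was not counted. Tnfrsf14 changed direction without this tissue, at 1.22 higher in cancer (adjusted p = 0.041) against -0.66 ± 1.57 with it.

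Normal 2 was high in milk and proliferation genes, and normal 1 in fat and stromal ones. Of 12 milk genes, 11 were highest in normal 2, as were 16 of 17 luminal markers and 10 of 14 mitosis genes. Glycam1, a milk mucin, had the largest SD of any named gene, at 16.97, 7.97 and 16.47 in the cancers, against 7.24, 18.26 and 17.56 in the normal tissues. It was low in cancer 2 and normal 1 and high in the other samples. The antimicrobial lectins Reg3b and Reg3a read 7.63, 9.03 and 6.89 in the cancers, against 6.75, 14.60 and 12.24 in the normal tissues and 6.91, 8.15 and 6.50 in the cancers, against 6.21, 14.11 and 11.36 in the normal tissues, high in normal 2 and 3 only. In normal 1, 20 of 22 adipocyte markers, 12 of 14 fibroblast genes and 10 of 14 nerve genes were the highest of the 3. For these counts of normal 2 and normal 1 the share over all genes was not counted. In normal 1 the tight junction gene Ocln read 7.80, against 10.88 in normal 2 and 10.30 in normal 3.

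**Figure D4:**
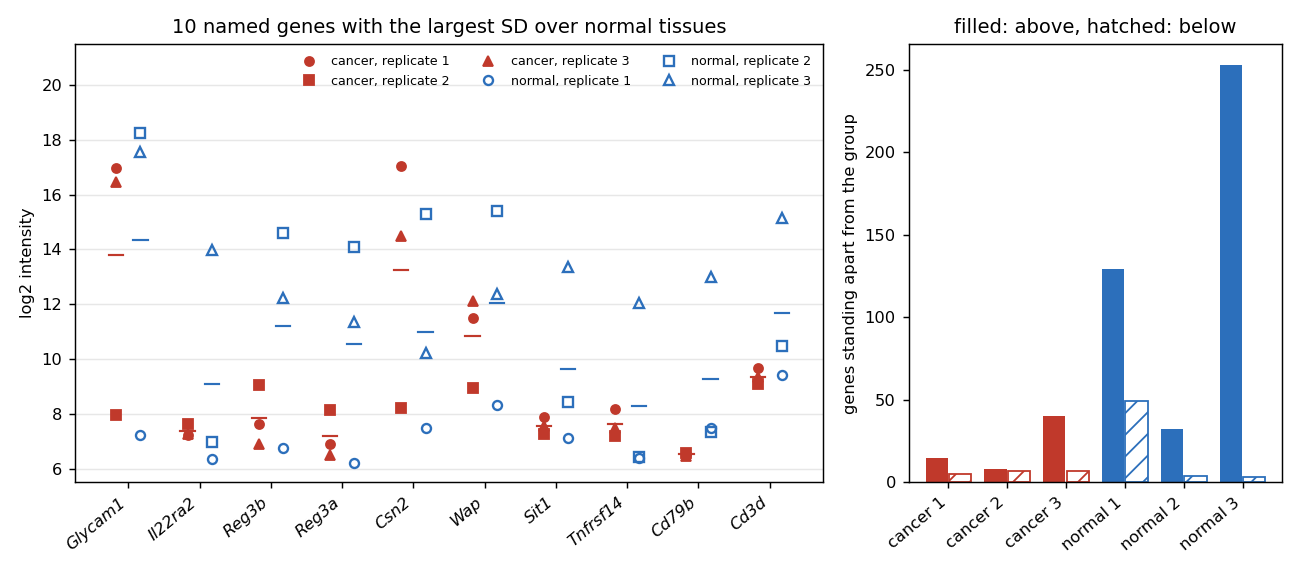
Left, log2 intensities (y axis) of the 10 named genes with the largest SD over the lean-control normal tissues, in cancers (red, filled) and normal tissues (blue, open), with group means as short lines. Right, the number of genes (y axis) in which a sample stood over 2 log2 units above (filled) or below (hatched) both others of its group, which is largest for normal 3 at 253.

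The cancers had a spread of their own in few genes. The named genes with the largest SD over the cancers, chosen after their values were seen, were Glycam1, Igf2, Csn2 and Cma1, given above, then the potassium channel Kcnk2 and Fgf3, a fibroblast growth factor. Kcnk2 read 7.18, 8.31 and 13.59 in the cancers, against 7.75, 7.10 and 7.85 in the normal tissues, high in cancer 3 alone. Fgf3 read 11.28, 6.83 and 12.13 in the cancers, against 7.07, 6.79 and 6.65 in the normal tissues, with 2 of 3 cancers over 4 log2 units above every normal tissue and cancer 2 within their range (adjusted p = 0.127). Fn1, fibronectin, read 11.10, 13.03 and 16.45 in the cancers, against 16.79, 14.96 and 14.06 in the normal tissues, so cancers 1 and 2 were below the normal tissues and cancer 3 within their range.

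Cancer against normal was also set beside the same contrast in rats on the high-fat diet, which shares no sample with it. Over 36658 genes the lean-control difference correlated with the OP difference at r = 0.850 and with the OR difference at r = 0.786, across genes, which are not independent. Of the 8380 genes called in lean controls, 97.8% had the same direction in OP and 96.2% in OR rats, a share not counted over all genes. All 20 arrays were normalized together. Fewer probes were well above background on cancer than on normal arrays in OP (65.6% against 94.4%) and OR rats (74.8% against 96.2%) too. The part of this gap in the shared direction was not tested. A test of the lean-control effect minus the mean of the OP and OR effects, over all 20 arrays, called 28 of 38229 genes (0.0732%), 24 with a higher and 4 with a lower difference in lean controls.

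For the 4 named genes among the 28, differences of effects ran from -0.87 to 1.42. Gtf2ird1, a transcription factor, differed between cancer and normal by 1.83 ± 0.170 in lean controls, against 0.62 ± 0.147 in OP and 0.44 ± 0.190 in OR rats (difference of effects 1.29 ± 0.208, adjusted p = 0.0288). Magi3, a scaffold of cell junctions, differed by 1.15 ± 0.197 in lean controls, against -0.27 ± 0.170 in OP and -0.28 ± 0.220 in OR rats (1.42 ± 0.241, adjusted p = 0.0419). Nudt1, which clears oxidised nucleotides, differed by -0.84 ± 0.122, against -0.02 ± 0.106 and 0.09 ± 0.137 in OP and OR rats, and Blvra, biliverdin reductase, by -0.69 ± 0.113, against 0.06 ± 0.0977 and 0.17 ± 0.126 (adjusted p = 0.0419 for both). In Nudt1 and Blvra the lean-control normal tissues were the highest group, at means of 10.1 and 10.0, against 9.56 and 9.16 in OP and 9.45 and 9.16 in OR normal tissue. In Gtf2ird1 and Magi3 they were the lowest group, at 10.7 and 8.90, against 11.5 and 10.0 in OP and 11.7 and 10.1 in OR normal tissue. Cancer means of Gtf2ird1 and Magi3 were 12.5 and 10.0 in lean controls, 12.2 and 9.75 in OP and 12.1 and 9.79 in OR rats. Those of Nudt1 and Blvra were 9.23 and 9.31 in lean controls, 9.54 and 9.22 in OP and 9.53 and 9.33 in OR rats. In Nudt1 the highest lean-control cancer (9.26) lay below the lowest OP (9.29) and OR (9.45) cancers. Among genes that missed the threshold, those with the smallest p were Reep2, Mmd and Irf2bpl upwards and Tubb3, Sfxn1 and Ccl24 downwards (adjusted p from 0.05001 to 0.0615).

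This count was carried by few samples. Limma called 0 genes without lean-control cancer 1 (3355 at an unadjusted p under 0.05) or cancer 2 (2826), 17 without cancer 3, and 1564, 126 and 41 without normal tissue 1, 2 or 3. Of 512 list members tested, limma called 0 for this difference, with 86 (16.8%) at an unadjusted p under 0.05, against 10.2% of all genes; the smallest adjusted p was that of Wnt4 (0.0984), at 3.73 in lean controls, 1.40 in OP and 1.56 in OR rats. The medians of some lists lay far apart between groups without any member passing. The luminal list differed by 2.52 in lean controls, 1.07 in OP and 1.17 in OR rats. Its means in normal tissue were 9.15, 10.87 and 9.67 in lean controls, against 10.78, 10.88 and 11.08 in OP and 11.03 and 10.84 in OR rats, while the cancer means overlapped (12.22 to 12.42 in lean controls, 11.69 to 12.42 in OP and 12.19 to 12.55 in OR rats). Mitosis genes had medians of 1.03 in lean controls, 1.82 in OP and 2.59 in OR rats, and macrophage markers -1.22, -0.16 and 0.60. Areg differed by 4.86 in lean controls, 2.16 in OP and 2.41 in OR rats (adjusted p = 0.375 for the difference of effects).

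**Figure D5:**
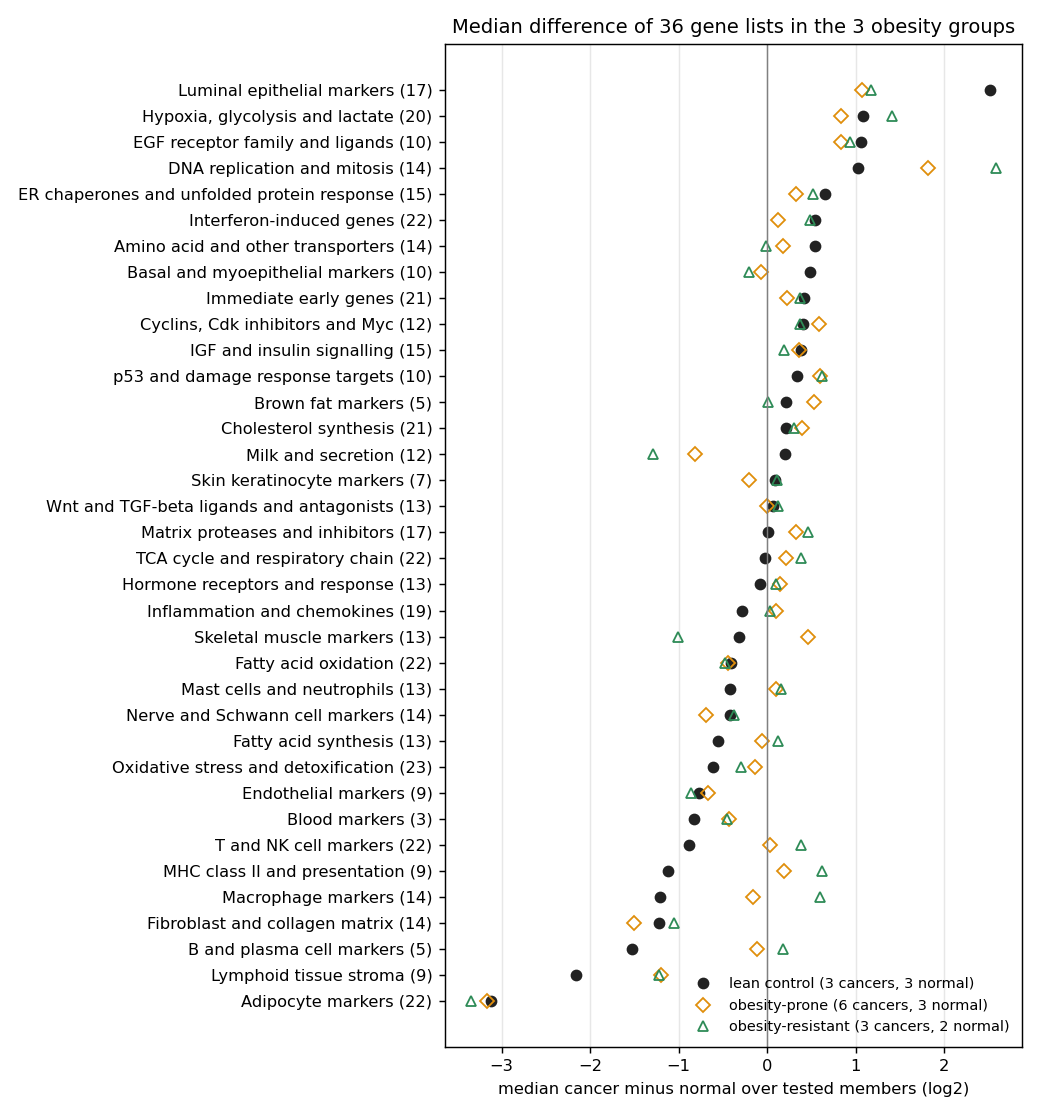
Points give the median cancer-minus-normal difference (log2, x axis) over the tested members of 36 gene lists (number tested in parentheses) in lean controls (black circles), obesity-prone (orange diamonds) and obesity-resistant rats (green triangles). Adipocyte markers are lowest in all 3 groups, whereas the luminal list is higher and the mitosis and macrophage lists lower in lean controls, a difference in medians that was not tested.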

How the data were processed

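Total RNA of 20 mammary samples was hybridised to 1-colour Agilent rat arrays, and the authors deposited scanner intensity values per spot, with flags for background and outliers, as Agilent Feature Extraction writes them (9.5.1.1 per the file headers, 10.7.3.1 per the submitters' processing notes). The authors also deposited a log2 value table. Set against the scanner files it matched log2 processed signal minus each array's 75th percentile, centred per probe on the median (r = 0.99988; column medians from -0.151 to 0.239).

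From the median spot intensity and median background, all 20 arrays were background-corrected with normexp (offset 50), put on the log2 scale and quantile-normalized, in R 4.3.3 with limma 3.58.1. The usual mean spot signal was not used here. Control spots (1639) were left out after correction, 115 probes carried outlier marks whose spots were left out, spots of a probe were averaged, and 0 spots were saturated. A probe was kept if at least a share of 0.5 of either lean-control group's arrays had it well above background, which removed 2434 of 41012 probes, and the brightest probe stood for a symbol. Of 13948 RefSeq accessions 8991 matched RefSeq's rat gene table, which named 10835 probes, while 30177 stayed unnamed. Among 213 genes with several called probes, 17 had probes in opposite directions.

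Cancer against normal was fitted on the 6 lean-control arrays with lmFit and eBayes, and the lean-control minus high-fat difference on all 20 arrays, each adjusted over all genes at 0.05. With 3 arrays a group the number of arrays limits the precision, and an exact permutation test of 3 against 3 cannot go below p = 0.1. The steps were tested on simulated data. Figures were drawn with matplotlib 3.10.9.

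The gene lists, tests and members were chosen with earlier results of these data known. Named genes were the 15 largest rises and falls past the threshold with groups apart, key members and low-p members of each list (some are given only in counts, and a few are not reported here), the 5 smallest p-values in each direction for the difference from high-fat rats, the 10 largest SDs over normal tissues, and Csn2, Igf1, Erbb2, Mki67, Pgr, Esr1, Adipoq and Lep. Outside this rule, and after their values were seen, Bnip3, C1qc, Cldn3, Cox5b, Dusp1, Egln3, Fgf3, Fn1, Gpx1, Gpx3, Gstm1, Hk1, Irs1, Kcnk2, Mmp7, Ndufs1, Ocln, Pfkl, Slc6a14, Sod3, Timp2 and Txnrd1 were named too. Alternatives changed the background correction, scaling, filter, probe choice, samples in the fit, prior variance and blocks (slide, scan day, replicate number), used the authors' table, and left out each sample. Leaving out high-fat samples and taking scan day 2 alone were chosen after seeing the data.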

Additional observations from a re-analysis of the deposited data

Results flagged for a closer look

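The test of the lean-control effect against the mean of the obesity-prone and obesity-resistant effects called 28 genes, which marks them as differing between groups. Of these 4 had a symbol. The difference of effects was 1.29 for Gtf2ird1 and 1.42 for Magi3, both more positive in lean controls, and -0.87 for Nudt1 and -0.80 for Blvra, both more negative in lean controls. Every lean-control cancer lay above every lean-control normal tissue in Gtf2ird1 and Magi3, and below in Nudt1 and Blvra. The count was 0 without lean-control cancer 1 or 2 (limma, with 3355 and 2826 genes at an unadjusted p under 0.05), and 1564 without lean-control normal 1.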

How the results depend on the processing

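Against 8380 calls for cancer against normal, limma called 22167 with processed signals scaled to the 75th percentile (5269 shared, 5176 in the same direction), 4503 with background-corrected signals so scaled, 16565 with all 20 arrays in the fit, 13391 with slide as a block (1 residual degree of freedom) and 14338 with that block over 20 arrays, 93 with scan day as a block and 15197 with that block over 20 arrays, and 0 on scan day 2 alone (5738 at an unadjusted p under 0.05). Without a single sample calls ranged from 2162 (cancer 2) to 11356 (normal 3). Over the 6 arrays the slide block reduces each estimate to cancer 1 minus normal 1. Apart from the replicate block below, the other alternatives stayed within 1.5 times. Against 28 calls for the difference from high-fat rats, there were 2 with processed and 0 with background-corrected signals scaled to the 75th percentile (2253 at an unadjusted p under 0.05 for the second), 0 in the authors' table (2034), 5 with slide as a block and, without a single sample, 0 to 1564. Without a single high-fat sample it ranged from 1 (OR normal 1) to 61 (OP normal 1). With processed signals scaled to the 75th percentile the median SD was 0.678 over normal tissues, against 0.309 over cancers. Over normal tissues it was 0.259 after quantile normalization, and 0.145 to 0.243 without a single normal tissue.

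Same-numbered cancers and normal tissues did not deviate together (r = -0.205, -0.0609 and -0.0746), and other pairs ran from -0.102 to 0.165. With 3 samples a group, and since tissues of the same animal need not deviate alike, this cannot decide whether the numbers pair samples. With replicate number as a block 2099 genes passed for cancer against normal and 2 for the difference from high-fat rats.

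Of 176 named genes that passed, 11 still did with scan day as a block, 156 with that block over 20 arrays and 82, 86 and 89 without cancer 1, 2 or 3, none turning direction in these. Directions turned for 9 under each scaling to the 75th percentile. Values with processed, then background-corrected signals were -0.57 and -0.28 for Esr1, -0.32 and -0.25 for Egf, -0.10 and -0.19 for Fosl1, -0.10 and -0.19 for Gclc, -1.01 and -0.48 for Insr, -0.17 and -0.17 for Lifr, -1.30 and -0.29 for Mmd, -0.39 and -0.27 for Nqo1 and -0.039 and -0.075 for Plat. In the authors' table Egf was -0.30, Lifr -0.15, Plat -0.023 and Krt1 -1.05, and with processed signals scaled Krt1 was -1.07 and Ucp1 -1.77. With slide as a block Cd8a was 1.23, Egfr -1.51 and Tnfrsf14 1.81, and without a single sample Cd8a ran from -1.15 (normal 1) to 0.88 (normal 3) and Tnfrsf14 from -1.61 (normal 1) to 1.22 (normal 3). The cause was not tested. Signal over background limits dim genes: 930 of 8336 named genes were above background on no cancer array but on all normal arrays, and 89 of them passed as lower.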
